A study of Mus musculus with 6 samples.

Results

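The histone genes of mouse small intestinal organoids were examined with and without low-density lipoprotein (LDL). They were taken by name: a protein-coding gene belonged to the group when its GENCODE symbol began with H1f, H2ac, H2bc, H3c, H4c, H2az or H3f3 or was H2ax. In total, 78 of 21627 protein-coding genes in the table met this rule, and the table held 55416 genes of all types. Of the 78 genes, 67 were replication-dependent (H1f1 to H1f5 and all H2ac, H2bc, H3c and H4c genes), and 11 were variant or other histone genes (H1f0, H1f6 to H1f10, H2az1, H2az2, H2ax, H3f3a and H3f3b). The symbol H4f16, also part of the rule, was found for no gene of this annotation, and H4c16, a histone H4 gene on chromosome 6, was counted as replication-dependent by its name.

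Duodenal and jejunal crypts of 3 mice were grown as organoids and given LDL at 50 μg/ml or PBS as the control for 5 days, and 1 RNA library was sequenced from each culture. All 6 libraries carried the genotype label WT and the strain label C57BL/6, and the ages of the mice were not given in the sources used here. The LDL- and PBS-treated cultures of a replicate number came from the same animal, so each mouse served as its own control.

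The DNA of a nucleus is wound around octamers of histones H2A, H2B, H3 and H4, and linker histone H1 binds where DNA enters and leaves. Replication-dependent histone genes lie in clusters, lack introns and are transcribed mainly in S phase, when new chromatin has to be packed. Their mRNAs end in a conserved stem-loop instead of a poly(A) tail, and the stem-loop is bound by the protein SLBP. Variant histones such as H2A.Z, H3.3 and H1.0 are encoded outside the clusters, by mostly polyadenylated mRNAs, and are made throughout the cell cycle. In the crypt, stem cells and transit-amplifying cells divide rapidly, so replication-dependent histone mRNA is abundant there.

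The gene models differed between the classes, although not for every gene. Of the 67 replication-dependent genes, 53 lay in the cluster on chromosome 13 (GRCm39, chr13:21899933-24118834), 10 on chromosome 3 (chr3:96127181-96177448) and 3 on chromosome 11 (chr11:58838848-58847656). Of the variant or other genes, 1 (H1f6) lay in the chromosome 13 cluster. All exons of 58 of the 67 formed 1 unbroken block without an intron, against 6 of the 11 variant or other genes. The stem-loop, searched as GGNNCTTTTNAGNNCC with 6 paired bases on the sense strand within 200 bases after the stop codon, was found in 63 of 67 replication-dependent genes (94.0%), in 2 of 11 variant or other genes (H1f6 and H2ax), and in 3 of 21453 other protein-coding genes (0.0140%). The replication-dependent genes without a match were H2ac22, H2bc21, H3c8 and H4c1. Matches began 22 to 59 bases after the stop codon.

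The stem-loops of 1 gene of each family and of H2ax are printed from GRCm39, since they are the shared element that separates replication-dependent from most variant genes. Capitals mark the 16-base stem-loop, and lower case the 5 bases on either side.
H1f4 (chr13:23805760-23805785, minus strand): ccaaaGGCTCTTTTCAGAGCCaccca
H2ac12 (chr13:22219292-22219317, minus strand): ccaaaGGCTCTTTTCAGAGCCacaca
H2bc12 (chr13:22220465-22220490, plus strand): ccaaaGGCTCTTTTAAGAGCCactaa
H3c2 (chr13:23936798-23936823, plus strand): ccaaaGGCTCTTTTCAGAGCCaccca
H4c12 (chr13:21934315-21934340, minus strand): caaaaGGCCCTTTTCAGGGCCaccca
H2ax (chr9:44246532-44246557, plus strand): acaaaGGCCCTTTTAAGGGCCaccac
The H1f4, H2ac12 and H3c2 stem-loops were identical, and 42 replication-dependent genes carried this form. The form of H4c12 was found in 8 genes, all of them H4 genes, and that of H2bc12 in 8 replication-dependent genes. No replication-dependent gene carried the H2ax form.

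Promoters differed between the classes as well. RefSeq promoter windows (GRCm38.p6, 250 bases before to 50 after the start) were matched for 66 of the 78 genes, 57 of them replication-dependent. CCAAT, searched on both strands like the other motifs, was present in 86.0% of replication-dependent windows, in 66.7% of the 9 variant windows and in 41.1% of all 27025 windows. TATAAA was present in 59.6%, 11.1% and 15.7%, and the octamer ATTTGCAT in 22.8%, 11.1% and 1.97%. By family, every H1, H2A, H2B and H3 window but only 3 of 11 H4 windows held CCAAT, and the octamer was found in 7 of 14 H2B and 6 of 17 H2A windows and in no H1, H3 or H4 window. Windows of a divergent H2A and H2B pair overlap and share their motifs.

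Windows of an H2B gene, an H4 gene and the variant gene with the lowest fold change in the organoids are shown 5′ to 3′ on the strand of the gene, with the 3 motifs, or their reverse complements, in capitals.
H2bc12 (GRCm38.p6, chr13:22035571-22035870, plus strand): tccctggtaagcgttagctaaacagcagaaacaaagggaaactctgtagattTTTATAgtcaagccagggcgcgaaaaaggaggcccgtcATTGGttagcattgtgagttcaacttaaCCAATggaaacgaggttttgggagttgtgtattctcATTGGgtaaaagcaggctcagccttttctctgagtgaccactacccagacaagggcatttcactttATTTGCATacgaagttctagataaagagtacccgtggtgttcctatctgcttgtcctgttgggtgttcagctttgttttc
H4c12 (GRCm38.p6, chr13:21750504-21750803, minus strand): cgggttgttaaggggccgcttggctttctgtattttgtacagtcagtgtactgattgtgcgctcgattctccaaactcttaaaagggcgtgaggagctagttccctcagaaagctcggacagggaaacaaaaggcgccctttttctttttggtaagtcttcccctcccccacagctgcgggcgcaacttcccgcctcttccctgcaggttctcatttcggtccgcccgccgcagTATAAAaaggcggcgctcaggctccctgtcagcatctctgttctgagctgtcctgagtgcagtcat
H2az2 (GRCm38.p6, chr11:6444394-6444693, minus strand): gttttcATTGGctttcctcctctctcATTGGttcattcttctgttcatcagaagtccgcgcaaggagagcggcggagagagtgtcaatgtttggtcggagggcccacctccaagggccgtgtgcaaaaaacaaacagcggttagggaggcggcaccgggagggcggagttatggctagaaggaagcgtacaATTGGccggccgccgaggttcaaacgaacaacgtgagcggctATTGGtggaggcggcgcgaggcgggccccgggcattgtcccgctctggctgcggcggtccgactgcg
Each window shows another combination. H2bc12 held all 3 motifs, but TATAAA only as its reverse complement, at the site that the overlapping H2ac12 window holds as TATAAA. H4c12 held TATAAA without CCAAT, and H2az2 held CCAAT without TATAAA.

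The libraries held 22061545 to 31073360 reads assigned to genes. The LDL-treated library of mouse 1 stood apart, with reads on 35781 genes against 29285 to 32751 in the others. In that library, Rn18s-rs5, an 18S ribosomal RNA gene, took 7.62% of the reads (95% Wilson interval, 7.61 to 7.63). It took 3.02% (3.02 to 3.03) in the PBS-treated library of mouse 2 and at most 0.225% (0.223 to 0.227) in the other 4 libraries. All 9 epithelial markers passed the filter of a mean normalized count of 10, with a summed normalized count of 92603 to 107280 with PBS and 104070 to 134620 with LDL. The 8 stromal markers summed to 164 to 192 and 99.1 to 159, the 6 immune markers to 125 to 193 and 147 to 218, and the 4 endothelial markers to 17.9 to 33.7 and 15.5 to 37.8. Of these markers, 3 stromal, 2 immune and 1 endothelial passed the same filter. Dcn and Adgre1 were at 0 in all PBS-treated libraries and at most 6.10 with LDL, and Ptprc was at most 12.2 in any library.

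Replication-dependent histone mRNAs were abundant in the organoids. Their genes held 0.677% (0.674 to 0.681) of the reads in the LDL-treated library of mouse 1 and 2.16% (2.15 to 2.17) in that of mouse 2, the lowest and highest of the 6 libraries. Intervals cover counting error only, and reads of near-identical genes may be counted at several copies. The kit named for the libraries is an mRNA kit used after removal of ribosomal RNA, and whether poly(A) RNA was also selected is not given in the sources used here. A level is the normalized count averaged over the 6 libraries. Per kilobase of exon, H4 and H3 genes stood highest, with medians of 17184 over 13 H4 genes and 20999 over 10 H3 genes. The H2B median was 5764 over 17 genes, the H1 median 4526 over 5 genes and the H2A median 2964 over 15 genes, beside 1713 over the 6 variant genes that passed the filter. The highest level was that of H4c12, at 52089 per kilobase, followed by H4c8 at 36927 and H3c10 at 33969. Among variant genes, H3f3b was the highest at 3760 per kilobase, then H1f0 at 2656, H2az1 at 2126, H2ax at 1300, H3f3a at 868 and H2az2 at 309. Exon length is that of the gene model, 312 bases for H4c12 and 7425 for H1f3, so the order depends on these models. By mean count without length, H4c8 was highest at 17356, and H3f3a at 5306 stood above H2ax at 1799.

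**Figure D1:**
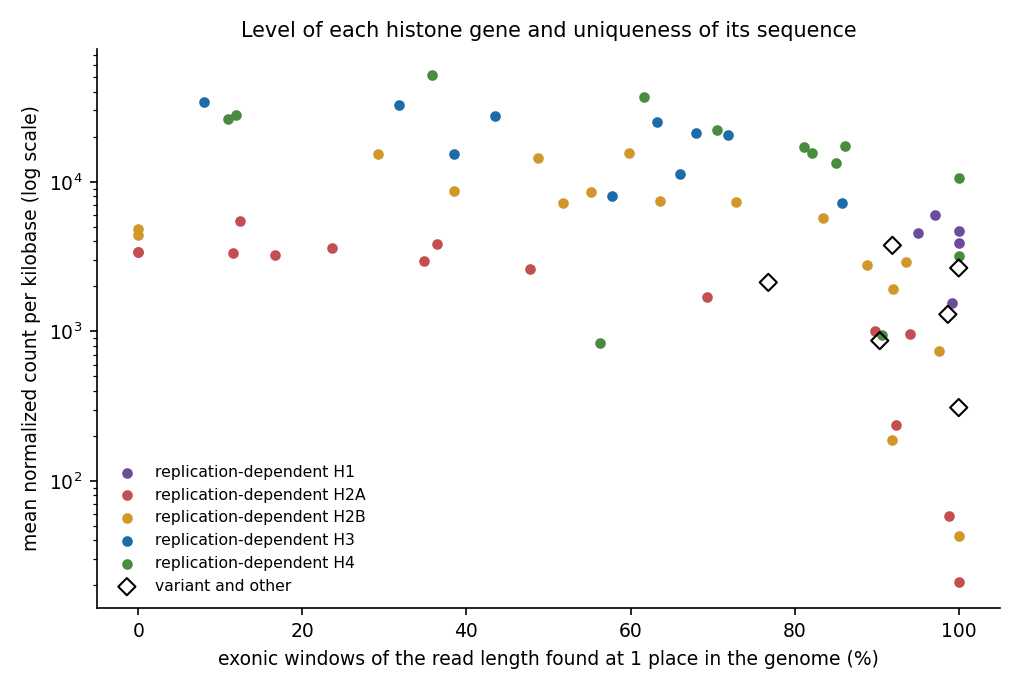
Mean normalized count per kilobase over the 6 libraries (log scale) against the percentage of exonic windows of the read length that occur at 1 place in the genome. Each of the 66 points is a histone gene that passed the filter. Circles are replication-dependent genes by family and open diamonds are variant genes, which all lie at 76.8% or more.

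Many of these levels are shared between copies. Only 39 of the 60 replication-dependent genes that passed the filter had at least 50% of their exonic windows of the read length at 1 place in the genome, whereas all 6 variant genes did. H4c17 and H4c18 differed by 4 to 11 reads per library, H2bc23 and H2bc24 by 0 to 4, and H2ac23 and H2ac24 by 0 to 2. Values of such copies are therefore uncertain one by one, and the summed values below can count a read more than once. The H2A level is uncertain for another reason. In the annotation, 17 of 18 replication-dependent H2A genes, and none of the other 49, contain a miRNA gene on the opposite strand within their exons, and all these miRNA genes were at 0. The libraries were stranded, but the strand setting of the counting is not given in the sources used here, and the part of these overlaps in the H2A values was not tested.

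The same filter left out 12 members. Of these, 7 had no read in any library (H2ac1, H2ac18, H2ac19, H2bc18, H3c13, H3c14 and H1f7), where a count of 0 allows up to 3 reads per library. All exons of 5 of them (H2ac18, H2ac19, H2bc18, H3c13 and H3c14, on chromosome 3) lie within exons of another gene. Among protein-coding genes so covered by a gene of the same strand, 131 of 144 (91.0%) were at 0 in all libraries, as were 18 of 32 (56.3%) covered from the opposite strand only and 742 of 10368 (7.16%) with no overlap. H2bc27 had a mean of 8.13. The germ cell linker histone genes H1f6, H1f8 and H1f9 and the gene H1f10 had means of 0.407 to 2.02, with at most 4 reads in any library.

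The first question was how the replication-dependent genes differed between LDL and PBS. The direction of the difference was not the same in all mice. Their summed normalized count was 380853, 468250 and 491270 with PBS and 198019, 559107 and 341999 with LDL in mice 1, 2 and 3. LDL was thus 0.520 and 0.696 times PBS in mice 1 and 3 and 1.19 times PBS in mouse 2, and the groups overlapped for the sum and for every one of the 60 genes tested (24.2% of all genes did not overlap). All 60 were lower with LDL in mouse 1, all were higher in mouse 2, and 58 were lower in mouse 3, H1f1 and H2bc26 being the exceptions. The within-mouse medians of the log2 difference were -0.87, 0.27 and -0.54, whereas those of all 18459 genes tested were -0.04, 0.0014 and -0.02. In bulk organoids, fewer cells in S phase and less histone mRNA per cell cannot be told apart.

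**Figure D2:**
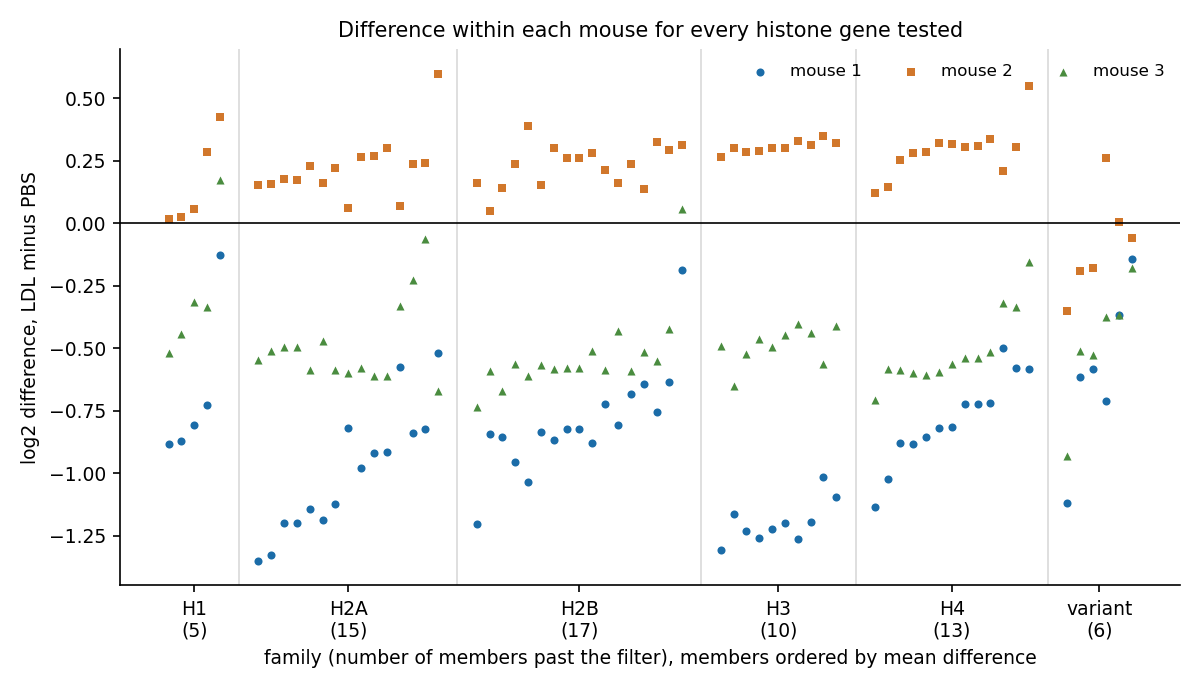
Log2 difference in normalized count (plus 1) between the LDL- and PBS-treated libraries of the same mouse, for the 66 histone genes tested, ordered within each family by the mean difference. Symbols are mice. All replication-dependent points of mouse 2 lie above 0 and all of mouse 1 below it, and 2 of mouse 3 lie above 0.

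None of the 60 replication-dependent genes was called by limma (threshold, an adjusted p of 0.05 together with 1.5-fold), where 0.878% of all genes were called up and 0.395% down. None had an unadjusted p-value under 0.05 (19.7% of all genes), and the smallest adjusted p-value from limma was 0.362. With the mouse as a block, again 0 were called (5.68% of all genes up and 3.46% down), although 18 of 60 had an unadjusted p-value under 0.05 (30.1% of all genes). With edgeR and DESeq2 on the recovered reads, with or without the block, 0 were called, and unadjusted p-values under 0.05 were found for 0 genes by both tools without it and for 10 and 13 genes with it. Of all 18459 genes, edgeR called 172 up and 65 down, and DESeq2 819 and 358. With the block, edgeR called 1072 and 663, and DESeq2 945 and 553. The share of all genes at that unadjusted p-value is not given here for these tools. The median log2 fold change from limma was -0.41, or 0.754-fold, beside -0.02 for all genes, and 58 of 60 values lay below 0. Single libraries moved these values. Without the LDL-treated library of mouse 2, 28 genes were called down (6.13% of all genes) and the median was -0.76. With both libraries of mouse 2 left out, 2 were called down (734 of all 18601 genes), or 47 with the mouse as a block (7.17% of all genes). Without the LDL-treated library of mouse 1 the median was -0.02.

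Markers of RNA composition moved with this pattern. Rn18s-rs5 took 0.0923% of reads with PBS and 7.62% with LDL in mouse 1, 3.02% and 0.0826% in mouse 2, and 0.103% and 0.225% in mouse 3, so that in each mouse the library with the larger share had the lower histone sum. Between mice the order did not always hold. The PBS-treated library of mouse 2 had a larger share than that of mouse 1 but a higher histone sum, 468250 against 380853. The part of Rn18s-rs5 in the result was not tested.

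All 5 families followed the same split between mice. The H1 sum with LDL was 0.584, 1.06 and 0.776 times that with PBS in mice 1, 2 and 3. For H3 these ratios were 0.434, 1.23 and 0.713, and for H4 they were 0.561, 1.21 and 0.676. H3 was the family with the widest spread between mice, and H1 was nearly level in mouse 2. The H3 sum was 91.6%, 101.01% and 100.5% of the H4 sum with PBS and 70.9%, 103% and 106% with LDL, so that the ratio of these nucleosome core partners was lower with LDL in mouse 1 and higher in mice 2 and 3.

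**Figure D3:**
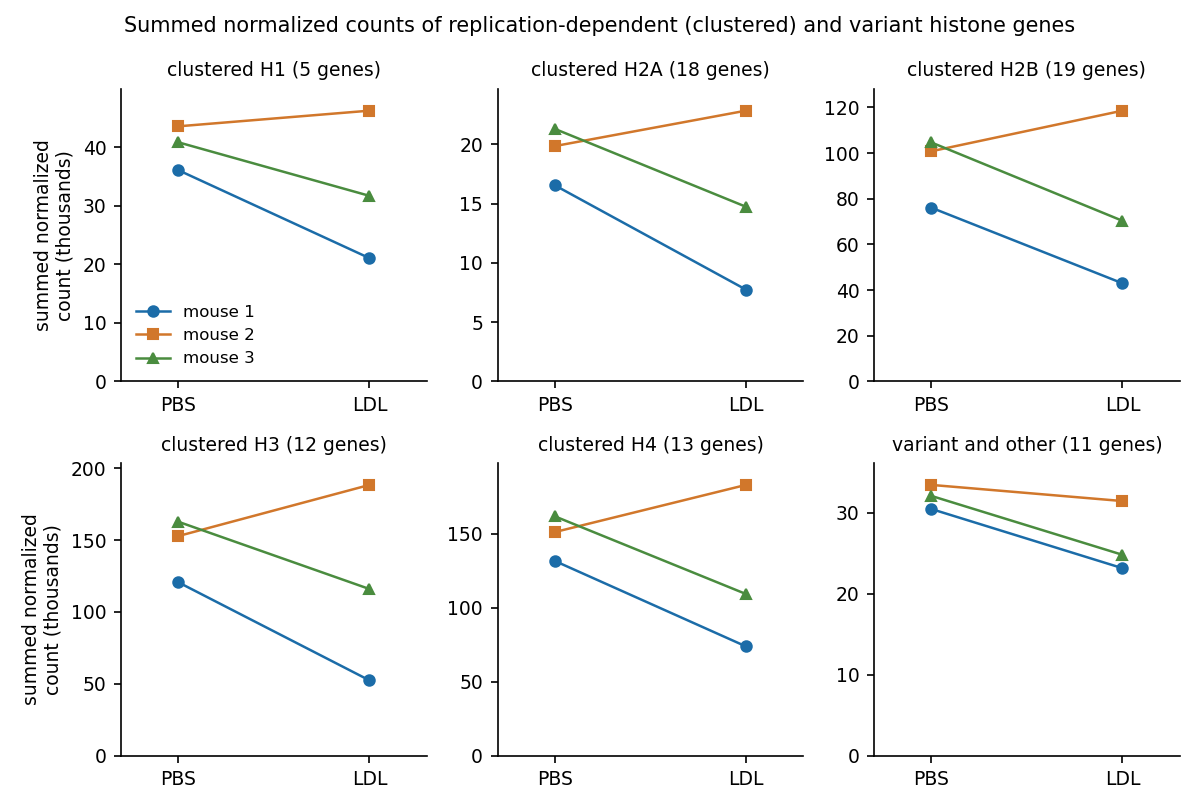
Summed normalized counts of the replication-dependent (clustered) genes of each family and of the 11 variant or other genes, in the PBS- and LDL-treated library of each mouse. Lines join the libraries of a mouse. Every clustered family is higher with LDL in mouse 2 and lower in mice 1 and 3, whereas the variant sum is lower with LDL in all 3 mice.

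Linker histone genes come first by their role outside the nucleosome core. Normalized counts of H1f4, the linker histone gene with the highest count, were 12200, 14274 and 13214 with PBS and 6620, 14433 and 9217 with LDL. Limma gave a log2 fold change of -0.46 ± 0.25 (SE, n = 3 per group) and an adjusted p of 0.362, or 0.0856 with the block. H1f3 was at 10807, 13991 and 12991 with PBS and at 6168, 14552 and 10427 with LDL. H1f2 was at 7242, 8603 and 7958 with PBS and at 3957, 8744 and 5859 with LDL. In all of these genes, mouse 2 was nearly level and mice 1 and 3 were lower, so the groups overlapped.

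H1f1 differed from them. Its normalized counts were 2538, 2834 and 2701 with PBS and 2323, 3803 and 3046 with LDL, a log2 fold change of 0.16 ± 0.17 (limma, adjusted p = 0.665). As a percentage of the sum of H1f2 to H1f5, H1f1 stood at 7.57, 6.96 and 7.09 with PBS and at 12.4, 8.97 and 10.6 with LDL. These groups did not overlap, and neither did those of 24.2% of all genes for their own values. This gene and this ratio were chosen after the values had been seen. Its windows were all at 1 place in the genome and it carries a stem-loop identical to that of H1f4 in the 16 bases.

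H2A and H2B genes make the dimers that leave and rejoin nucleosomes most readily. H2ac12 was at 2144, 2546 and 2785 with PBS and at 982, 2966 and 1855 with LDL. H2ac7 was at 2126, 2496 and 2749 with PBS and at 962, 2921 and 1828 with LDL. H2ac11 was at 1662, 2053 and 2154 with PBS and at 728, 2296 and 1553 with LDL. Only 12.5%, 36.4% and 23.6% of the windows of these genes were at 1 place in the genome, and they gave nearly the same log2 fold change of -0.50 (limma, adjusted p = 0.482 to 0.504).

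Among H2B genes, H2bc24 was at 8657, 11382 and 11951 with PBS and at 4888, 13624 and 7998 with LDL, and H2bc23 was its copy within 4 reads. H2bc4 was at 7434, 9970 and 10640 with PBS and at 4037, 12110 and 7463 with LDL, a log2 fold change of -0.37 ± 0.36 (limma, adjusted p = 0.626). The LDL values of H2bc4 thus spanned a wider range than the PBS values and enclosed them. H2bc4 is mostly unique in sequence, with 88.8% of its windows at 1 place. H2bc26 was the other gene with a log2 fold change above 0, at 57.2, 79.5 and 69.2 with PBS and 50.01, 99.1 and 71.9 with LDL, or 0.06 ± 0.28, and 87.9% of its exons overlap exons of another gene.

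Most H2A and H2B genes stand in divergent pairs. Of 14 pairs of members that start within 500 bases of each other on opposite strands, 13 joined an H2A and an H2B gene, with starts 176 to 306 bases apart. Within the 13 pairs of which both genes were tested, log2 fold changes differed by a median of 0.13 and at most 0.27. Median log2 fold changes of all H2A and H2B genes tested were also close, at -0.45 and -0.38. Differences between unpaired genes were not examined. The normalized count was higher for the H2B gene in 11 of 12 H2A and H2B pairs tested, by up to 14.6-fold for H2bc4 over H2ac6. The exception was H2bc21 at 0.224 times H2ac20. These ratios are of counts, not per length, and they carry the uncertainty of the H2A values given above.

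The core histones H3 and H4 had the highest counts. H3c2 was at 15795, 19892 and 21576 with PBS and at 6723, 24200 and 15024 with LDL (log2 fold change -0.49 ± 0.41, limma adjusted p = 0.565). H3c15 was at 14893, 18130 and 19474 with PBS and at 6642, 22334 and 12411 with LDL. H3c7 was at 12887, 16543 and 17422 with PBS and at 5511, 20359 and 12372 with LDL. For each of these, the LDL-treated library of mouse 1 was the lowest of the 6 and that of mouse 2 the highest. H4c8 was at 17094, 19594 and 20908 with PBS and at 9300, 23341 and 13898 with LDL. H4c12 was at 16108, 18009 and 19745 with PBS and at 8739, 21887 and 13023 with LDL, and H4c1 at 15324, 16867 and 18466 with PBS and 8700, 21020 and 12510 with LDL. The same held for these H4 genes. The 95% interval of the H4c8 change was 0.470- to 1.21-fold unblocked and 0.554- to 1.03-fold with the mouse as a block. A small rise lay within both, and a fall to less than 0.5-fold within the unblocked interval only. Of the exons of H4c8, 98.1% overlap exons of another gene, so its value is uncertain.

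The second question was whether variant genes behaved like the clustered genes. The sum of the variant or other genes was 30466, 33447 and 32085 with PBS and 23158, 31453 and 24813 with LDL. It was lower with LDL in all 3 mice, by 23.99%, 5.96% and 22.7%. The highest LDL value lay above the lowest PBS value. Of the 6 genes tested, 4 were lower in all 3 mice (H1f0, H2az2, H3f3a and H3f3b), as were 26.8% of all genes but none of the 60 replication-dependent genes. The ratio of the replication-dependent to the variant sum ranged from 12.5 to 15.3 with PBS and was 8.55, 17.8 and 13.8 with LDL, and the groups overlapped.

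**Figure D4:**
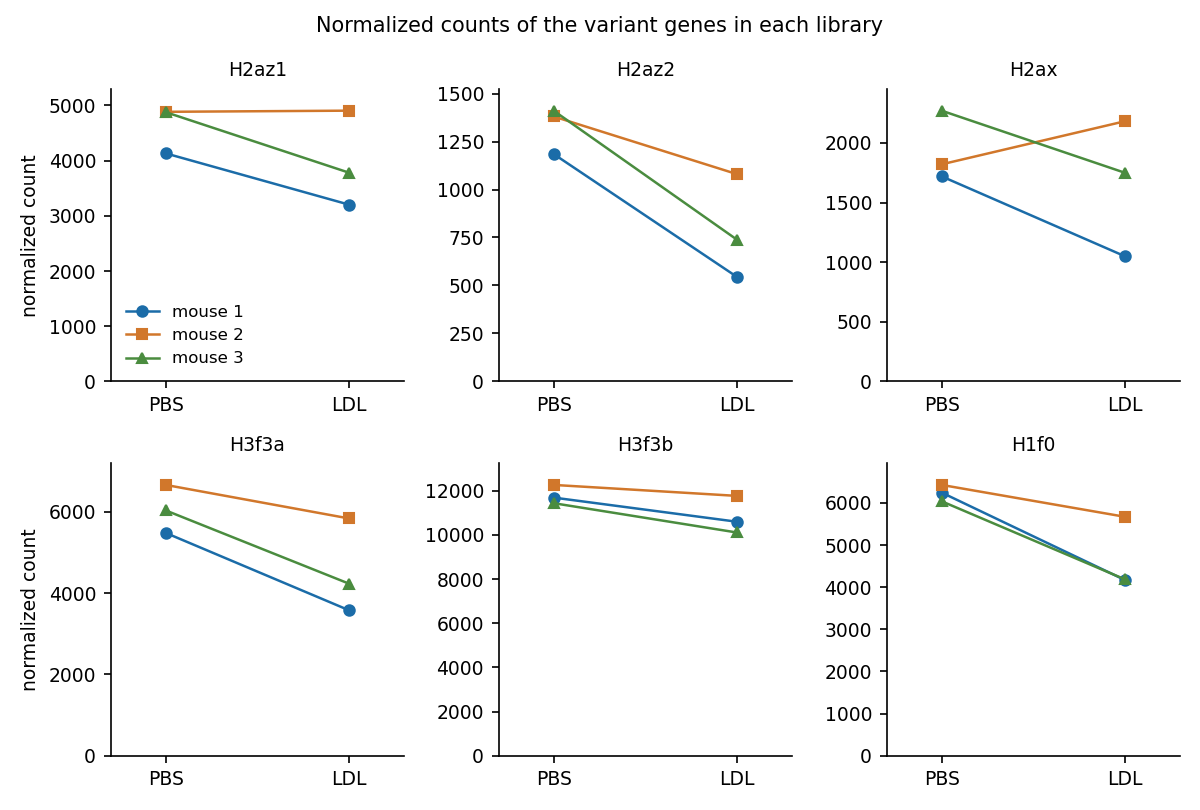
Normalized counts of the 6 variant genes that passed the filter in the PBS- and LDL-treated library of each mouse, with lines joining the libraries of a mouse. H2az2 and H1f0 are lower in every LDL-treated than in every PBS-treated library, and H2ax is higher with LDL in mouse 2.

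H2az2 (chr11:6371231-6394481, GRCm39), which encodes the H2A.Z.2 form of histone H2A.Z, had the lowest fold change of all members. Its normalized counts were 1185, 1381 and 1411 with PBS and 545, 1080 and 739 with LDL. Every LDL value lay below every PBS value, and within mice LDL was 0.460, 0.783 and 0.524 times PBS. The log2 fold change was -0.80 ± 0.23 (SE, n = 3 per group), and the adjusted p was 0.117 by limma and 0.00859 by limma with the mouse as a block. It was the only member called with the block (3.46% of all genes were called down). DESeq2 called it without the block (adjusted p = 0.0267) and edgeR did not (adjusted p = 0.133), and both did with the block. The unblocked 95% interval was 0.399- to 0.825-fold. All its windows were at 1 place in the genome.

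H2az1, which encodes the H2A.Z.1 form, was at 4131, 4884 and 4878 with PBS and at 3203, 4904 and 3782 with LDL, a log2 fold change of -0.24 ± 0.16 (limma, adjusted p = 0.454, 0.133 with the block). Mouse 2 was level and the groups overlapped. H2az2 was 28.7%, 28.3% and 28.9% of H2az1 with PBS and 17.02%, 22.0% and 19.5% with LDL, so that these ratios did not overlap. This ratio was chosen after the values had been seen, and the difference between both genes was not tested.

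Histone H3.3 is encoded by H3f3a and H3f3b, and their proteins are identical. H3f3a was at 5483, 6663 and 6036 with PBS and at 3580, 5838 and 4234 with LDL, lower in all mice but with overlapping groups. Its log2 fold change was -0.44 ± 0.18 (limma, adjusted p = 0.226, 0.0216 with the block), which is less than 1.5-fold. H3f3b was at 11694, 12268 and 11440 with PBS and at 10600, 11771 and 10112 with LDL, a log2 fold change of -0.13 ± 0.10 (limma, adjusted p = 0.540, 0.352 with the block). H3f3b was lower with LDL in all 3 mice, although the groups overlapped. The copies annotated as H3f3c and H3f3a-ps2 had mean normalized counts of 989 and 302, and whether reads of H3f3a were counted there was not tested.

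H1f0, the gene of linker histone H1.0, which is known to accumulate in cells that leave the cell cycle, was at 6248, 6429 and 6042 with PBS and at 4173, 5673 and 4188 with LDL. The groups did not overlap. The log2 fold change was -0.43 ± 0.13, and limma's adjusted p was 0.136, or 0.0229 with the block, and the change was less than 1.5-fold. Of the 6 variant genes, H1f0, H2az2 and H3f3a passed an adjusted p-value of 0.05 with the block, where 15.7% of all genes did.

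H2ax, whose protein is phosphorylated at DNA breaks and whose mRNA carries a stem-loop, was at 1720, 1820 and 2271 with PBS and at 1050, 2182 and 1750 with LDL. Like the replication-dependent genes, and unlike the other variant genes except H2az1, it was higher with LDL in mouse 2. Its log2 fold change was -0.28 ± 0.25 (limma, adjusted p = 0.605).

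**Figure D5:**
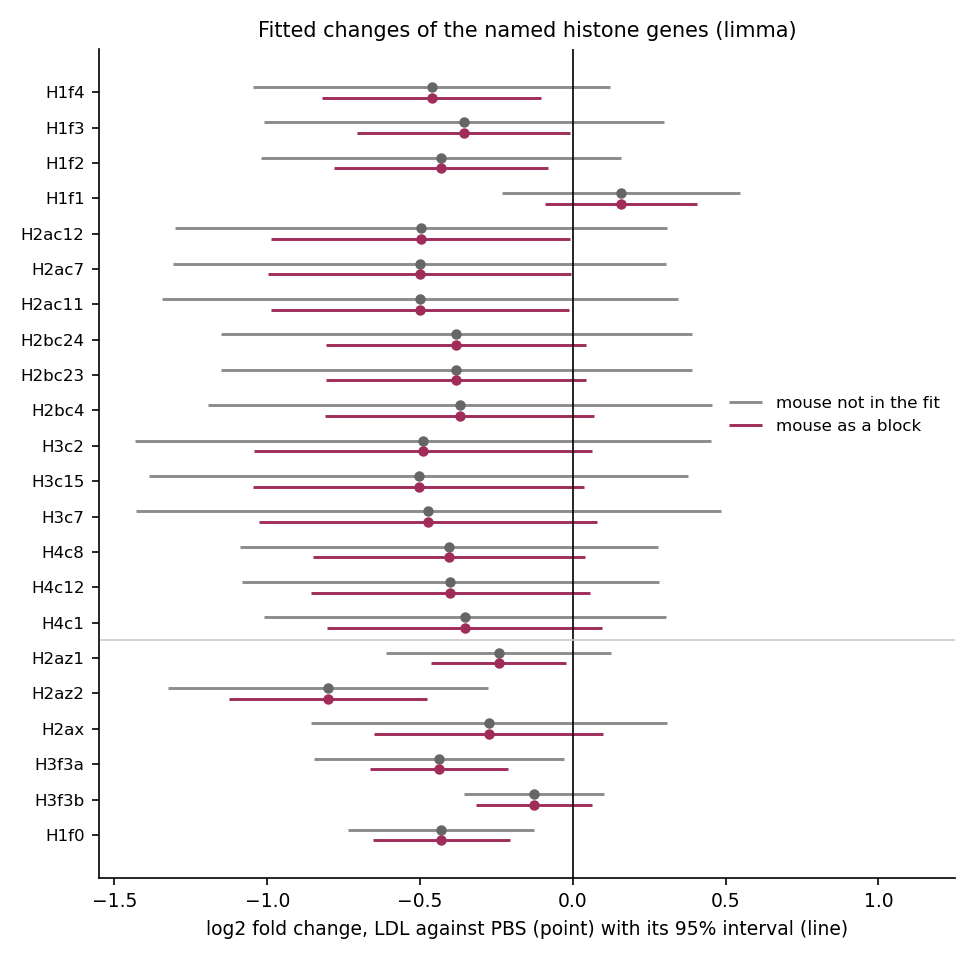
Log2 fold change from limma with its 95% interval, LDL against PBS, for 16 replication-dependent genes (above the line) and 6 variant genes (below it), without the mouse in the fit and with the mouse as a block. Without the block, the intervals of H2az2, H3f3a and H1f0 lie below 0. With the block, intervals are narrower, and those of H1f4, H1f3, H1f2, H2ac12, H2ac7, H2ac11 and H2az1 also lie below 0.

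The genes that make, process and deposit histones were examined as well. Of 19 genes of histone transcription and 3′ end processing, 28 chaperones and deposition factors, 4 tested of the other histone variants outside the rule, and 25 genes of S phase and cycling, 0 were called by limma without the block (0.878% of all genes up and 0.395% down) or with it (5.68% up and 3.46% down). At an unadjusted p-value under 0.05 from limma these were 3, 0, 1 and 6 genes, where 19.7% of all genes were. By DESeq2 or edgeR, 0 were called, and their calls over all genes are given above. Without the LDL-treated library of mouse 2, 1 gene of S phase and cycling was called up, where 1194 of all 18542 genes were. Median log2 fold changes were 0.03, 0.0047, -0.13 and 0.08, beside -0.41 for the replication-dependent genes.

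Slbp, which encodes the stem-loop binding protein, was at 2215, 2213 and 2310 with PBS and at 2311, 2436 and 2233 with LDL. Npat, an activator of histone gene transcription, was at 1398, 1346 and 1437 with PBS and at 1481, 1405 and 1391 with LDL. Their log2 fold changes were 0.05 ± 0.08 and 0.03 ± 0.08. Neither varied between mice as the histone genes did.

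Log2 fold changes of the 28 chaperones ran from -0.38 to 0.33, and 7 were lower and 6 higher in all 3 mice (26.8% and 24.2% of all genes). Chaf1a, a subunit of the assembly factor CAF-1, had a log2 fold change of 0.04 ± 0.10, and Asf1b, which carries H3 and H4 dimers, 0.04 ± 0.14. Nasp, which protects soluble H3 and H4, was at 4231, 4138 and 4402 with PBS and at 4928, 4520 and 4309 with LDL (0.11 ± 0.09). Of the variants outside the rule, Cenpa, the centromeric H3, was at 1653, 1538 and 1554 with PBS and at 1380, 1427 and 1622 with LDL (-0.10 ± 0.09), and Macroh2a1 stood at -0.02 ± 0.10.

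Of the 25 genes of S phase and cycling, 12 were higher with LDL in all 3 mice and 2 were lower (24.2% and 26.8% of all genes). The sum of the 25 genes with LDL was 1.04, 1.06 and 0.959 times that with PBS in mice 1, 2 and 3. Mcm2, a subunit of the replicative helicase, was at 3234, 2851 and 3357 with PBS and at 3599, 4040 and 3617 with LDL (log2 fold change 0.26 ± 0.10, limma adjusted p = 0.209). Pcna, the sliding clamp of DNA polymerase, stood at -0.00081 ± 0.10 and Mki67, a marker of cycling cells, at -0.06 ± 0.13. With the block, 4 of the 25 had an adjusted p-value from limma under 0.05, all under 1.5-fold, a share near the 15.7% of all genes. These were Cdc6, Rrm2 and Mcm3, which were higher with LDL in all 3 mice, and Prim1, which was lower in all 3, and they were named after their values had been seen. Ccne1, the gene of cyclin E1 (0.46 ± 0.10, limma adjusted p = 0.0107 with the block), and Nap1l1 (0.33 ± 0.15, 0.0400) were the only genes of the other lists that did so.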

How the data were processed

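RNA from organoids of 3 mice, treated with LDL or PBS, gave 6 single-end libraries. The authors removed ribosomal RNA, prepared stranded libraries, aligned to GRCm39 with STAR, counted with featureCounts and deposited a signal per gene, which is a normalized count (reads divided by 1 size factor per library). Multi-mapping and strand settings of the counting are not given in the sources used here. The deposited values returned whole reads for 100% of entries (tolerance 0.01). Gene symbols and models came from GENCODE M39, in which 54749 of 55416 identifiers were found.

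The 18459 genes whose normalized count averaged 10 or more were compared as log2(normalized count + 1) with limma 3.58.1 (R 4.3.3, eBayes with a trend, two-sided, Benjamini-Hochberg over all genes tested), without a mouse term. Fold changes are on that scale, and calls needed an adjusted p-value under 0.05 and more than 1.5-fold. The mouse as a block, edgeR 4.0.16, DESeq2 1.42.0, pseudocounts, filters, upper-quartile scaling and left-out libraries were alternatives, and tests were checked on simulated data. The replicate numbers pair the libraries, since both of a number carry 1 animal identifier, and their deviations from the group means correlated across genes with r = 0.484, 0.421 and 0.462.

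Members and gene lists were chosen with earlier results of these data known. Genes named with values were the 3 replication-dependent members of highest mean in each family, all variant members past the filter, members called with or without the block, called genes of the other lists, and Slbp, Npat, Cenpa, Macroh2a1, Chaf1a, Asf1b, Nasp, Mki67, Pcna and Mcm2. One further gene of this rule is not reported here. Others are named as chosen after their values were seen or for sequence, overlap or counts. Values by library follow the order mouse 1, 2, 3.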

Additional observations from a re-analysis of the deposited data

How the results depend on the processing

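No replication-dependent gene was called under any alternative that kept both libraries of mouse 2. Over the fits that left out 1 library or 1 mouse, 0 to 28 were called down, and with the replicate block and mouse 2 left out, 47 were. Of the variant genes, 1 (H2az2) was called down with the replicate block, with DESeq2, with edgeR or DESeq2 with the block, and with the block but not mouse 1 or mouse 2. Leaving out 1 library or mouse gave 0 to 2 variant genes, the 2 being H2az2 and H3f3a in the fit lacking LDL-treated mouse 2. With all 6 libraries kept, the replicate block changed no other limma call of these genes. Of the histone-related lists, 0 to 1 genes of S phase and cycling were called up over the fits with 1 library or mouse left out. The adjusted p of H2az2 ranged from 1.13e-07 (block, mouse 2 left out) to 0.741 (mouse 3 left out). The replication-dependent median was -0.28 with edgeR, -0.27 with DESeq2 and -0.38 over members with at least 50% unique windows.

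Some genes turned direction under an alternative. Of these, H2bc4, H3c2 and H3c7 were called down with the block and mouse 2 left out (-0.70, -0.88 and -0.86), and the others under no fit. Over the fits with 1 library or mouse left out, the log2 fold change ranged from -0.75 to 0.041 for H2bc4, from -0.91 to 0.011 for H3c2, from -0.91 to 0.035 for H3c7, from -0.54 to 0.023 for H2ax, from -0.015 to 0.34 for H1f1, from -0.12 to 0.059 for Macroh2a1, from -0.0075 to 0.099 for Chaf1a, from -0.071 to 0.18 for Asf1b and from -0.11 to 0.067 for Pcna. With the block and 1 mouse left out, Macroh2a1 was 0.053 (mouse 1) and 0.016 (mouse 3), Asf1b -0.027 (mouse 2) and Pcna 0.041 (mouse 1) and 0.067 (mouse 3), and Pcna was 0.0059 with DESeq2. The cause was not tested. Genes whose change differed between mice are poorly bounded by 3 mice. The effect of depth on the members was not tested, and shared sequence limits copies with few unique windows.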
